A study of Capra hircus with 20 samples.

Results

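A set of 10 genes of immature neurons was chosen by symbol in the hypothalamus of the goat, namely the transcription factors SOX4 and SOX11, the cytoskeletal genes DCX, TUBB3, STMN1, STMN2, DPYSL3 and CRMP1, the growth cone gene GAP43 and the proteolipid gene NNAT. Symbols were matched to the gene IDs of the expression table through the annotation of the goat genome ARS1.2, which gave values for 9 of the 10 genes among 21071 genes in the table. TUBB3 was not analysed here. The libraries came from 20 healthy female Jining grey goats, an early-maturing breed, with 5 goats at each of D1 (1 day old), M2 (2 months old), M4 (4 months old) and M6 (6 months old). Each goat gave 1 strand-specific library of hypothalamic RNA depleted of rRNA and was sampled at 1 age only. The replicates are therefore goats, and the stages compare different animals. Values are FPKM, which scale the fragments of a gene by its length and by the mapped fragments of the library, so that levels of different genes are compared per length.

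A neuron that has left the cell cycle first switches on transcription factors such as SOX4 and SOX11, and then builds its axon and dendrites with proteins that keep microtubules and actin in motion. DCX binds and bundles microtubules in migrating neurons and is widely used to mark newborn neurons. Most of these genes fall as neurons mature, while some, such as STMN2 and GAP43, stay on in mature neurons that keep their axons plastic. In whole tissue, fewer cells of a type and less RNA per cell cannot be told apart.

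The immature neuron genes lie on 9 different chromosomes of ARS1.2. SOX4 is on chromosome 23 (13838195 to 13843498) and SOX11 on chromosome 11 (90544578 to 90546119). DCX is on chromosome X (32724034 to 32763972), STMN1 on chromosome 2 (8769309 to 8797830) and STMN2 on chromosome 14 (39194912 to 39253321). DPYSL3 is on chromosome 7 (51746661 to 51861481), CRMP1 on chromosome 6 (103695716 to 103760279) and GAP43 on chromosome 1 (60044530 to 60150216). NNAT is on chromosome 13 (66023769 to 66026960), inside the span of BLCAP (66020801 to 66031444). The end of SOX11 overlaps LOC108637093 (90546009 to 90547452), which was listed at 0 in 19 libraries and at 0.349 FPKM in the other. The annotation used here gives no strand, so whether these overlaps lie on the same strand is not known here for NNAT and SOX11.

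Several libraries stood apart. KLHDC1 held 23.9% of the summed FPKM in M2 replicate 3 and 9.83% in M6 replicate 3. M6 replicate 3 had the lowest sum of 15 mature neuron genes, 154 FPKM against a median of 1097 FPKM over the M6 libraries, and M4 replicate 1 had the highest, 3077 FPKM. The label of hypothalamus was only partly borne out by its markers. NKX2-1, a transcription factor of the developing hypothalamus, reached 1 FPKM in 7 of 20 libraries, OTP in 5, AVP (vasopressin) in 13 and GHRH in 0. Among the other listed hypothalamus genes, SST reached 1 FPKM in 19 libraries, PMCH in 9, OXT in 8 and TRH in 8. SIM1 did so in 7 and HCRT in 6. Single libraries were high, with OXT at 413 FPKM in M6 replicate 4 and PMCH at 375 FPKM in M6 replicate 5. NEUROD6, a gene of neurons of the telencephalon, reached 1 FPKM in 2 of 20 libraries and was highest in M4 replicate 1, at 23.7 FPKM. The 6 pituitary genes with values stayed at or under 2.12 FPKM in every library. The part of dissection in the values below was not tested.

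The 9 genes covered a wide range of levels. STMN1, which binds free tubulin and promotes the loss of microtubule ends, was the highest, at 309 FPKM on average over the 20 libraries, above 99.4% of the genes that passed the filter. STMN2, its relative in growing axons, followed at 231 FPKM and GAP43, a membrane protein of growth cones, at 95.8 FPKM. NNAT, a small proteolipid of the endoplasmic reticulum, was at 30.6 FPKM and DPYSL3, a collapsin response mediator that binds tubulin and actin, at 15.6 FPKM. The lower genes were SOX4 at 7.17 FPKM, CRMP1, a second collapsin response mediator, at 6.92 FPKM, and DCX at 3.80 FPKM. SOX11 was the lowest at 0.366 FPKM and stayed under 1 FPKM in all 20 libraries. It was above only 8.19% of the tested genes. The order of neighbours was the same in most libraries. STMN2 was above GAP43 in 20 of 20 libraries, GAP43 above NNAT in 19, DCX above SOX11 in 19 and DPYSL3 above SOX4 in 18. NNAT was above DPYSL3 in 16, CRMP1 above DCX in 16 and STMN1 above STMN2 in 15. SOX4 and CRMP1 could not be ordered, with SOX4 higher in 12 of 20 libraries.

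**Figure D1:**
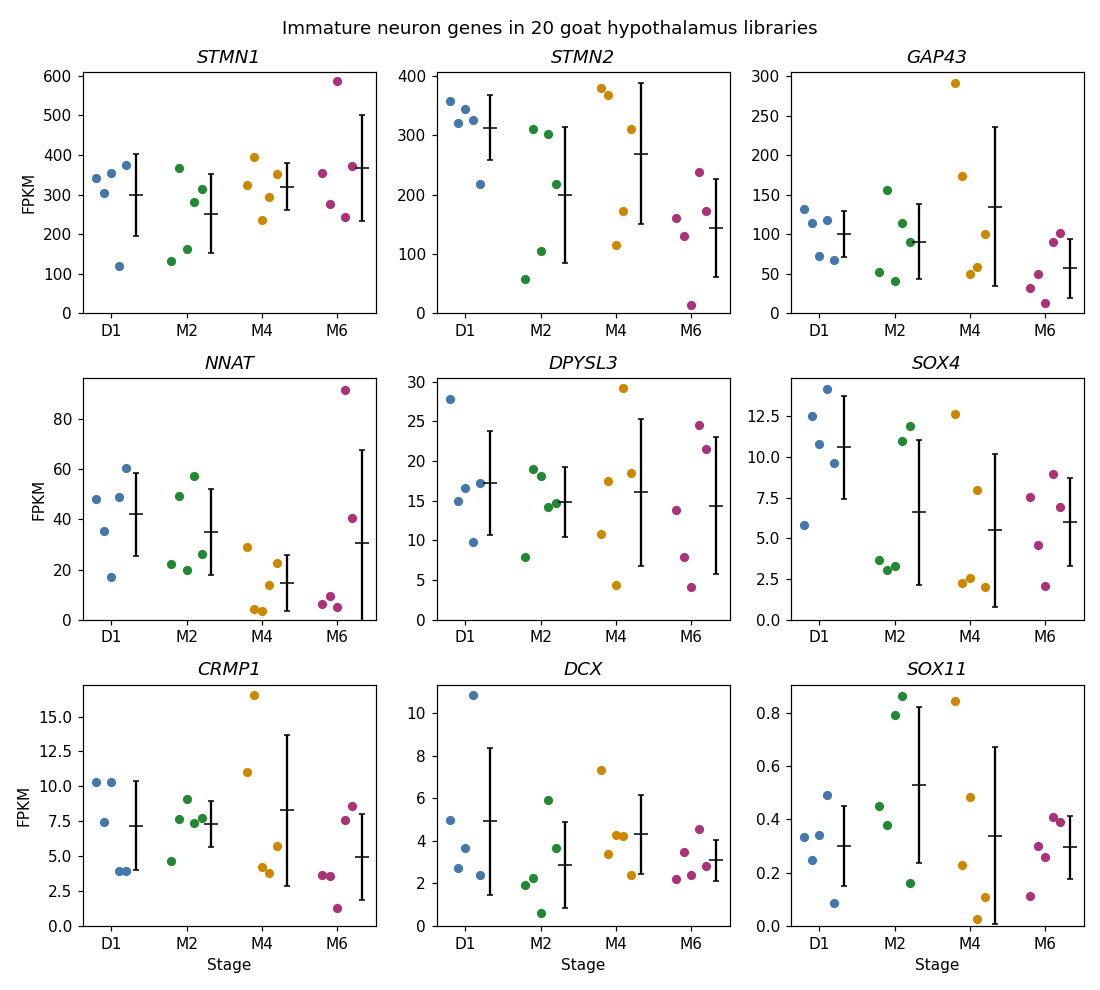
FPKM of the 9 immature neuron genes in each library by developmental stage (points, 5 goats per stage), with the mean and SD of each stage. Each panel has its own FPKM axis starting at 0, the SD bar of NNAT at M6 is cut at 0, and the stages overlap in every panel.

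No immature neuron gene was called between any 2 stages. The 4 stages were compared with limma on log2(FPKM + 0.1), and a called gene had to reach a Benjamini-Hochberg adjusted p under 0.05 together with a log2 fold change of 1 or more in size. A fold change on this scale understates the change of a gene as low as SOX11. With limma, 0 of the 9 genes were called in M2 vs. D1, M4 vs. M2, M6 vs. M4 or M6 vs. M2, in which 0% of the 16771 genes tested were called. The count was 0 of 9 in M4 vs. D1, where 0.0537% of all genes were called, and 0 of 9 in M6 vs. D1, where 0.00596% were. It was also 0 of 9 for the mean of M2, M4 and M6 against D1, where 0.0596% of all genes were called. The F test over the 4 stages called 0 of 9 genes at an adjusted p under 0.05, against 0.00596% of all genes. These counts stayed at 0 under every alternative tried, including without M2 replicate 3, M4 replicate 1 and M6 replicate 3.

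At an unadjusted p under 0.05, a few of the genes were lower at a later stage. The count was 2 of 9 in M4 vs. D1 (SOX4 and NNAT), where 8.71% of all genes passed, and 2 of 9 in M6 vs. D1 (STMN2 and GAP43), where 7.41% did. It was 1 of 9 in M4 vs. M2 (NNAT), against 8.68% of all genes, and 1 of 9 in M6 vs. M4 (GAP43), against 6.87%. In M2 vs. D1 it was 0 of 9, although 15.6% of all genes passed, and in M6 vs. M2 it was 0 of 9, against 6.14%. The later stages together against D1 gave 1 of 9 (SOX4), against 11.7% of all genes, and the F test gave 0 of 9, against 10.4%. All comparisons with D1 share the same 5 libraries, so their counts are not separate evidence.

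The stage explained about as much of the variance of the immature neuron genes as of other genes. Its share was 19.1% at the median of the 9 genes, from 4.59% in DPYSL3 to 30.9% in NNAT, and 18.2% at the median of all genes tested. The spread between goats of 1 stage was 0.83 at the median of the 9 genes as an SD on the log2 scale, from 0.55 in STMN1 to 1.24 in NNAT, and 0.57 at the median of all genes.

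SOX4, which switches on neuronal genes in young neurons, was the one gene with an unadjusted p under 0.05 in the later stages together. It was at 5.85, 12.5, 10.8, 14.2 and 9.64 FPKM in D1 replicates 1 to 5. It was at 3.67, 3.07, 3.31, 11.0 and 11.9 FPKM at M2, at 12.6, 2.26, 2.58, 7.95 and 2.03 FPKM at M4, and at 7.53, 4.58, 2.08, 8.97 and 6.95 FPKM at M6. At D1, 4 of 5 libraries lay above 9 FPKM, while each later stage mixed libraries near 2 to 5 FPKM with libraries in the D1 range, so that the stages overlapped. The mean of D1 was 10.6 FPKM ± 3.16 (SD, n = 5), that of M2 6.59 ± 4.45, that of M4 5.49 ± 4.68 and that of M6 6.02 ± 2.71. Against D1, the log2 fold change of the later stages was -1.02 (SE 0.43, 95% interval -1.90 to -0.13, limma, adjusted p = 0.361), and that of M4 alone was -1.27 (SE 0.52, adjusted p = 0.503). When limma also held the mapping rate of each library, these values of SOX4 were -0.04 and -0.42.

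SOX11, the close relative of SOX4, showed no such order. Its values were from 0.0842 to 0.494 FPKM at D1, from 0.162 to 0.864 FPKM at M2, from 0.0268 to 0.847 FPKM at M4 and from 0.114 to 0.408 FPKM at M6. The stages overlapped fully, and the later stages differed from D1 by a log2 fold change of 0.17 (95% interval -0.72 to 1.05).

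DCX did not show a difference beyond the spread between goats. Its FPKM values were 4.97, 2.74, 3.66, 10.8 and 2.39 at D1, and 1.91, 2.24, 0.590, 5.90 and 3.68 at M2. They were 7.33, 3.37, 4.25, 4.24 and 2.37 at M4, and 2.19, 3.48, 2.37, 4.56 and 2.83 at M6. DCX was thus detected in every library to 6 months of age, with a single high library at D1 (replicate 4) and a single low one at M2 (replicate 3). The later stages differed from D1 by a log2 fold change of -0.47 (95% interval -1.28 to 0.35), and by -0.13 without D1 replicate 4.

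STMN1 and STMN2, though related, differed in how they varied. STMN1 was at 341, 303, 355, 119 and 376 FPKM at D1, and at 132, 367, 164, 280 and 314 FPKM at M2. It was at 325, 394, 235, 295 and 352 FPKM at M4, and at 354, 275, 587, 244 and 372 FPKM at M6. STMN1 was high at all 4 stages, its lowest value was in D1 replicate 4 and its highest in M6 replicate 3. Its log2 fold change in the later stages against D1 was 0.09 (95% interval -0.49 to 0.67), and -0.21 without D1 replicate 4.

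STMN2 was at 357, 320, 344, 325 and 218 FPKM at D1, and at 57.1, 311, 104, 303 and 218 FPKM at M2. It was at 380, 367, 115, 173 and 311 FPKM at M4, and at 161, 130, 14.0, 239 and 172 FPKM at M6. At M6, 4 of 5 libraries were below every D1 library and M6 replicate 4 lay inside the D1 range. The mean of D1 was 313 FPKM ± 55.2 (SD, n = 5) and that of M6 143 ± 82.3. In M6 vs. D1, the log2 fold change was -1.57 (SE 0.61, limma, adjusted p = 0.617). It was -0.85 without M6 replicate 3, the library with the lowest STMN2 and the lowest mature neuron sum, and -0.26 in the fit with the mapping rate.

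The collapsin response mediators had stage means that lay within the spread between goats. The mean of DPYSL3 was 17.3 FPKM ± 6.56 (SD, n = 5) in D1 goats, 14.8 ± 4.40 in M2 goats, 16.0 ± 9.30 in M4 goats and 14.4 ± 8.66 in M6 goats. The mean of CRMP1 was 7.19 FPKM ± 3.19 in D1 goats, 7.30 ± 1.64 in M2 goats, 8.27 ± 5.44 in M4 goats and 4.93 ± 3.07 in M6 goats. Both genes had their lowest value of all 20 libraries in M6 replicate 3, at 4.11 FPKM for DPYSL3 and 1.26 FPKM for CRMP1. The log2 fold changes of the later stages against D1 were -0.31 for DPYSL3 (95% interval -1.12 to 0.50) and -0.16 for CRMP1 (-0.96 to 0.64).

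GAP43 was at 132, 114, 72.5, 118 and 67.4 FPKM at D1, and at 51.7, 156, 40.6, 115 and 90.7 FPKM at M2. It was at 291, 174, 49.9, 58.0 and 101 FPKM at M4, and at 31.4, 49.8, 12.8, 89.7 and 101 FPKM at M6. At M6, 3 of 5 libraries were below every D1 library, the M4 libraries spanned the widest range, and all pairs of stages overlapped. The log2 fold change of GAP43 was -1.11 in M6 vs. D1 (SE 0.53, limma, adjusted p = 0.674) and -1.27 in M6 vs. M4 (SE 0.53, limma, adjusted p = 0.700). Without M6 replicate 3 these values were -0.66 and -0.82. In the fit with the mapping rate, the value in M6 vs. D1 was -0.08 and that in M6 vs. M4 stayed at -1.27. Marker lists differed between the same stages, although none of their genes was called by limma. All 15 mature neuron genes had a log2 fold change below 0 in M6 vs. D1 (median -0.86), and 12 of 15 in M6 vs. M4 (median -0.66). All 9 tested hypothalamus genes had a value above 0 in M6 vs. D1 (median 1.3) and in M6 vs. M4 (median 2.90). Their part in the values of STMN2 and GAP43 at M6 was not tested, except by the fit with the mature neuron mean.

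NNAT had the largest spread between goats among the 9 genes. It was at 48.3, 35.4, 17.0, 49.0 and 60.6 FPKM at D1, and at 22.3, 49.3, 19.8, 57.6 and 26.4 FPKM at M2. It was at 28.9, 4.35, 3.41, 14.0 and 22.6 FPKM at M4, and at 6.16, 9.45, 5.21, 91.6 and 40.4 FPKM at M6. At M4, 3 libraries were below every D1 and M2 library, while M6 held both the highest library of all 20 and 3 libraries under 10 FPKM. The log2 fold change of NNAT was -1.85 in M4 vs. D1 (SE 0.70, limma, adjusted p = 0.473) and -1.57 in M4 vs. M2 (SE 0.70, limma, adjusted p = 0.562). In the fit with the mapping rate, these values were -0.73 and -2.06. In M4 vs. D1, all 9 hypothalamus genes (median -0.91) and all 8 oligodendrocyte genes (median -1.48) had a value below 0, as had 9 of 15 mature neuron genes (median -0.08), with none called, and their part in the values of NNAT and SOX4 was not tested. BLCAP, whose span holds NNAT, was at 13.8 FPKM ± 16.0 (SD, n = 5) at D1 and 14.3 ± 8.18 at M4.

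**Figure D2:**
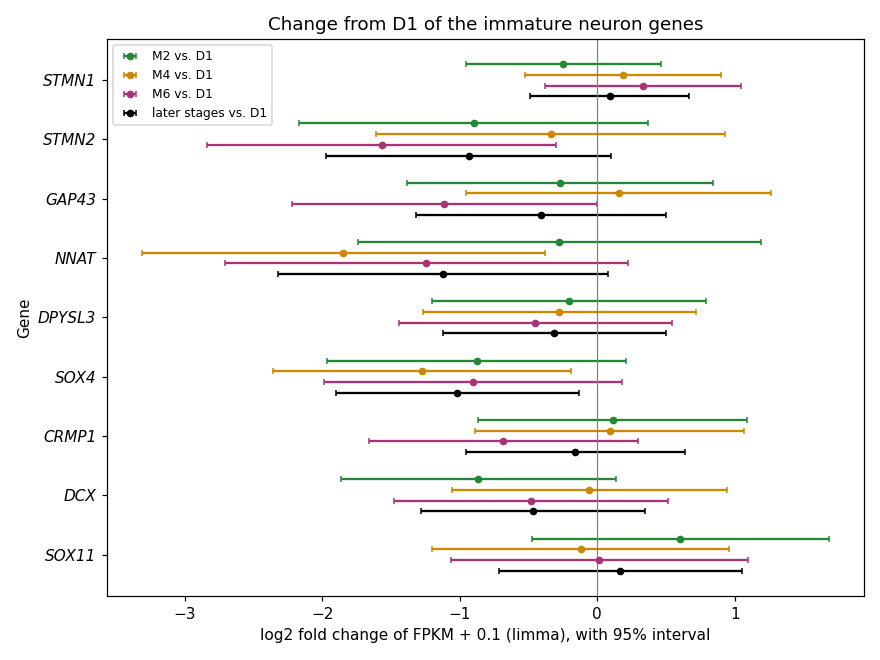
Log2 fold change of each immature neuron gene against D1, with the 95% interval from limma (n = 20 libraries), unadjusted for multiple tests. Values are shown for M2, M4, M6 and the later stages together (mean of M2, M4 and M6). In the later stages together, 7 of the 9 values are below 0, and only the interval of SOX4 does not cross 0. The intervals of SOX4 and NNAT in M4 vs. D1, and of STMN2 and GAP43 in M6 vs. D1, also do not cross 0.

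Side by side, 7 of the 9 genes had a log2 fold change below 0 in the later stages against D1, with a median of -0.41 over the 9 genes. Over all genes tested the median was -0.07 and 56.9% of the values were below 0. The values are ordered from NNAT at -1.12 and SOX4 at -1.02 through STMN2 at -0.94, DCX at -0.47 and GAP43 at -0.41 to STMN1 at 0.09 and SOX11 at 0.17. The mapping rate, as the study lists it, was lower on average at each later stage than at D1. In the fit with the mapping rate, 6 of the 7 negative values turned positive, and SOX4 was near 0. Among them were STMN2 at 0.57 (SE 0.33) and GAP43 at 0.78 (SE 0.36), and none was called. With a block on the replicate number added, NNAT was at -0.42. Because the mapping rate differs between D1 and the later stages, the parts of stage and mapping rate in these values cannot be told apart.

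Single libraries held the lowest or the highest value of their stage for several genes. M4 replicate 1 was the highest of its stage for 6 of the 9 genes, and M6 replicate 4 for 6. M6 replicate 3 was the lowest of its stage for 6 genes and M4 replicate 3 for 5. STMN1 stood against this order, with its highest value of all in M6 replicate 3. In the same library 15 mature neuron genes were at their lowest sum and 8 oligodendrocyte genes at 4255 FPKM, their highest sum at M6.

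The immature neuron genes were next set against mature neurons. The mean log2 value of the 15 mature neuron genes, among them SNAP25 and SYT1 of the synapse and the neurofilament genes, was taken in each library, and stage means were removed from both measures. Over the 20 libraries, STMN2 followed this mean most closely (Pearson r = 0.906, adjusted p = 0.00126; Spearman rho = 0.767, adjusted p = 0.00283), by 100000 permutations of the libraries within stages and adjustment over 9 relations. CRMP1 (r = 0.780, permutation test, adjusted p = 0.00126; rho = 0.707, adjusted p = 0.00283) and GAP43 (r = 0.697, permutation test, adjusted p = 0.0104; rho = 0.638, adjusted p = 0.0146) also followed it, and so did SOX4 to a lesser degree (r = 0.548, permutation test, adjusted p = 0.0352; rho = 0.550, adjusted p = 0.0401). The signs were positive in all 4 stages for STMN2, CRMP1 and GAP43 and in 3 of 4 for SOX4. Without M6 replicate 3 and M2 replicate 1, the libraries farthest from the median, r was 0.716 for STMN2, 0.689 for CRMP1, 0.545 for GAP43 and 0.394 for SOX4.

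The other 5 genes did not pass this test. The permutation test gave r = 0.511 for DPYSL3 (adjusted p = 0.0797; rho = 0.205, adjusted p = 0.472), and r was 0.11 without the same pair of libraries. It gave r = 0.351 for DCX (adjusted p = 0.165; rho = 0.484, adjusted p = 0.0680), r = 0.323 for NNAT (adjusted p = 0.389; rho = 0.239, adjusted p = 0.471) and r = 0.244 for SOX11 (adjusted p = 0.300; rho = 0.332, adjusted p = 0.246). STMN1 was at r = -0.07 (permutation test, adjusted p = 0.790; rho = 0.0030, adjusted p = 0.993). Without the same pair of libraries, r was 0.446 for DCX, 0.402 for SOX11, 0.0565 for NNAT and 0.0641 for STMN1. Such relations were common among all genes. At an unadjusted p under 0.05, 5 of the 9 genes passed the permutation test for r, all with a positive sign, against 14.5% with a positive sign, and 21.9% with either sign, of the 16756 tested genes outside the mature neuron list. An r as high as that of STMN2 was found in 0.137% of genes, as high as that of CRMP1 in 1.91%, of GAP43 in 3.95% and of SOX4 in 10.6%. Genes of 1 library share its depth and its mix of cells. Differences of r between genes were not tested.

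**Figure D3:**
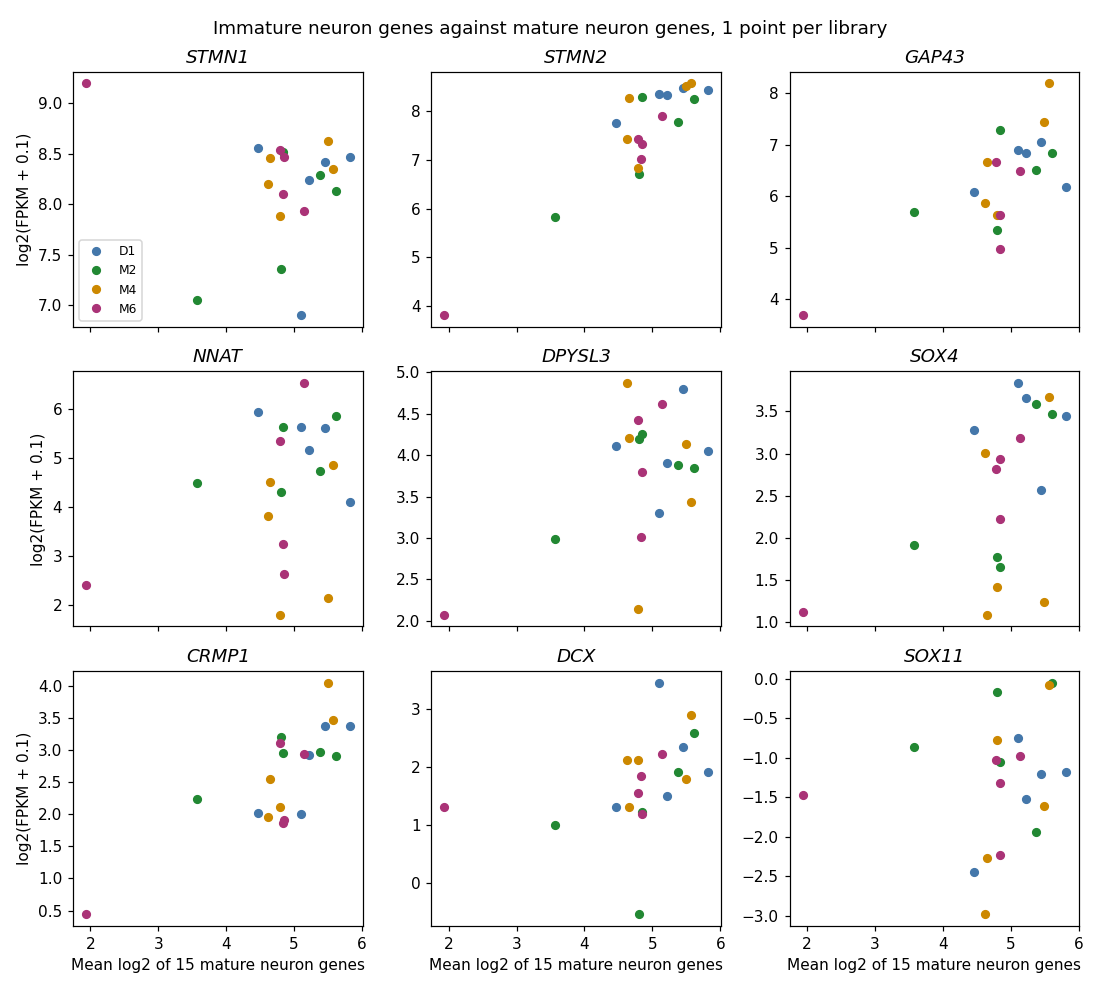
Log2(FPKM + 0.1) of each immature neuron gene (vertical axis) against the mean log2 value of 15 mature neuron genes (horizontal axis) in 20 libraries. Points are marked by stage, and stage means were not removed in this figure. STMN2 rises along the whole horizontal axis (r = 0.914 for the points shown), whereas STMN1 does not (r = -0.136). After removal of the stage means, r was 0.906 for STMN2 and -0.07 for STMN1.

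With the mature neuron mean as a covariate in limma, a fit added after the data were seen, the differences of STMN2 and GAP43 were smaller. STMN2 in M6 vs. D1 was then at a log2 fold change of -0.55 (SE 0.31), and GAP43 at -0.42 (SE 0.43). In the later stages against D1, STMN2 was at -0.39 in place of -0.94 and GAP43 at -0.04 in place of -0.41. CRMP1, which also followed the mean, turned from -0.16 to 0.20. The values of SOX4 and NNAT changed less, to -0.74 and -0.89 in the later stages against D1 and to -1.17 and -1.76 in M4 vs. D1. None of the 9 genes was called in this fit.

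Among the immature neuron genes themselves, 30 of 36 pairs had a positive r after removal of the stage means, with a median r of 0.334. This is 83.3% of the pairs, while over all pairs of tested genes 51.9% had a positive r and the median was 0.0165. The 3 pairs that passed at an adjusted p under 0.05 by permutation, in both r and rho, joined STMN2, CRMP1 and GAP43, and 0.934% of all gene pairs had an r as high as the lowest of these 3. For STMN2 and GAP43, r was 0.841 (permutation test, adjusted p over 36 pairs = 0.00216; rho = 0.848, adjusted p = 0.00072), and 0.828 without M6 replicate 3 and M2 replicate 1. For CRMP1 and GAP43, r was 0.745 (permutation test, adjusted p = 0.0238; rho = 0.696, adjusted p = 0.0439), and 0.649 without M6 replicate 3 and M4 replicate 2. For STMN2 and CRMP1, r was 0.739 (permutation test, adjusted p = 0.0063; rho = 0.612, adjusted p = 0.0315), and 0.589 without M6 replicate 3 and M2 replicate 1. The lowest value was that of SOX11 and STMN1, at r = -0.341, and SOX4 and DCX, both used to mark young neurons, were at r = 0.579 (permutation test, adjusted p = 0.0622; rho = 0.585, adjusted p = 0.103), and at 0.543 without M4 replicate 1 and M6 replicate 3.

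**Figure D4:**
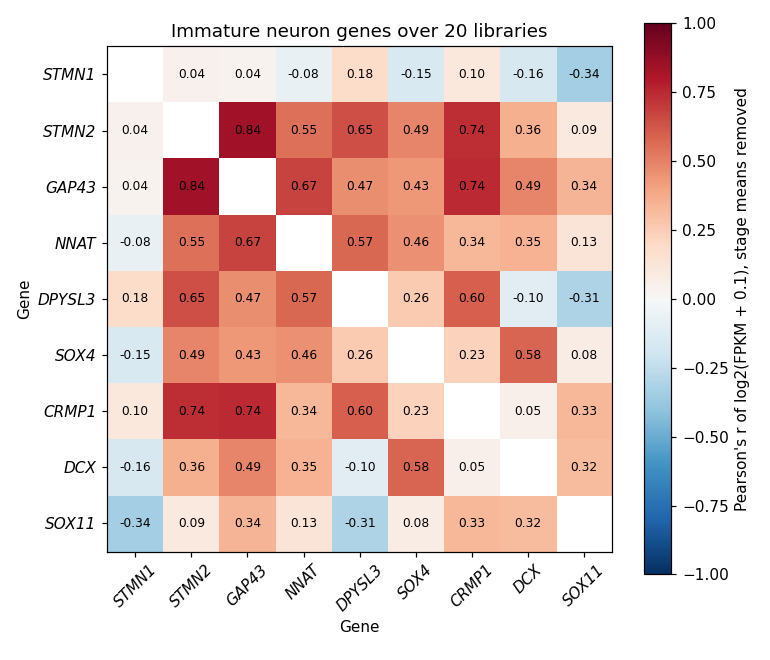
Pearson r between each pair of the 9 immature neuron genes over 20 libraries, after removal of the stage means, on a colour scale from -1 to 1. STMN2, CRMP1 and GAP43 hold the 3 highest values (0.739 to 0.841), and STMN1 and SOX11 have low or negative values with several genes.

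For each gene, the 3 genes with the most similar log2 values over the 20 libraries were taken among 13659 tested genes with a mean of at least 1 FPKM, as a description with no test, and 2 or 3 of them are named. Among the genes closest to STMN2 were ELOVL4 (r = 0.956) and THY1 (r = 0.949), a surface protein of neurons. CRMP1 was closest to TTC9B (r = 0.944), SLC6A7 (r = 0.937), the proline transporter of brain, and MAPK8IP2 (r = 0.929). GAP43 was closest to ERC2 (r = 0.934), a protein of the presynaptic active zone, and to LOC102183580 (r = 0.927) and LOC102183805 (r = 0.915). ELOVL4 elongates very long fatty acids, and the functions of the LOC genes are not given in the annotation used here. DCX was closest to ABI2 (r = 0.931), BAG5 (r = 0.912) and FBXO11 (r = 0.890), and DPYSL3 to GPX3 (r = 0.895), ACOT7 (r = 0.842) and ARHGDIG (r = 0.820). NNAT was closest to SLC2A3 (r = 0.893), the neuronal glucose transporter, RBP4 (r = 0.875) and CD24 (r = 0.807), a surface protein of young neurons and other cells. STMN1 was closest to RAB4A (r = 0.827), ENDOD1 (r = 0.797) and STMN4 (r = 0.797), another member of the stathmin family in neurons. SOX4 was closest to FOSL2 (r = 0.810), NAP1L4 (r = 0.777) and CRHBP (r = 0.764), and MARK2 (r = 0.757) and SLC9A5 (r = 0.756) were among the genes closest to SOX11. These are the highest of many values, so part of their height comes from the choice.

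Other genes of immature neurons were not called either. Of a list of 32, 29 were tested, and with limma 0 were called in the later stages against D1, with 6 log2 fold changes above 0 and 23 below, and a median of -0.27. One of the 29 had an unadjusted p under 0.05, against 11.7% of all genes. This was CD24, with a mean of 12.5 FPKM ± 7.92 (SD, n = 5) in D1 goats, 7.59 ± 5.77 in M2 goats, 4.88 ± 2.91 in M4 goats and 3.38 ± 2.20 in M6 goats. Its log2 fold change was -1.39 (SE 0.46, limma, adjusted p = 0.253). TUBA1A, the main alpha tubulin of growing neurons, was at -0.52 (limma, adjusted p = 0.479), MLLT11 at -0.74 (limma, adjusted p = 0.465) and ELAVL3, an RNA-binding protein of neurons, at -0.37 (limma, adjusted p = 0.448).

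Genes of neural progenitors and dividing cells, which precede immature neurons, were also not called in the later stages against D1. Of 11 tested, 0 were called by limma, 4 had a log2 fold change above 0 and 7 below, and 5 of the latter had an unadjusted p under 0.05, against 11.7% of all genes. The 4 values above 0 belonged to transcription factors of progenitors and were from 0.0012 to 0.13. TOP2A, the topoisomerase of dividing cells, was at 5.85, 2.60, 7.70, 8.86 and 0.685 FPKM at D1, and between 0.285 and 3.12 FPKM at the later stages. At D1, replicates 1 to 4 were above every later library but 1, and replicate 5 was low. The log2 fold change of TOP2A was -2.13 (SE 0.46, limma, adjusted p = 0.0766). It was -0.97 for VIM, an intermediate filament of radial glia and tanycytes (limma, adjusted p = 0.174), -1.28 for CDK1, the kinase that drives mitosis (limma, adjusted p = 0.255), and -0.82 for CCNB1, its cyclin (limma, adjusted p = 0.408). Of the 15 mature neuron genes, 0 were called, 12 had a value below 0 and 0 had an unadjusted p under 0.05, with a median of -0.52.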

How the data were processed

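The deposited values are FPKM per gene. Per the labels and the study's methods, the authors trimmed reads with fastp, aligned them to the goat genome ARS1.2 with HISAT2 2.0.5 and assembled transcripts with StringTie 1.3.3b, and then calculated FPKM for each gene. The summed FPKM was between 260199 and 377479 per library. The reads behind each value are unknown here, so no counting interval is given. Of 21071 gene IDs, 20610 matched the RefSeq annotation.

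The filter kept every gene that reached 0.1 FPKM in 5 or more of the 20 libraries (16771 genes, all 9 immature neuron genes with values among them). The limma package 3.58.1 (R 4.3.3) was run on log2(FPKM + 0.1) with a variance trend and no block. The 6 comparisons between stages, the mean of the later stages against D1 and an F test were taken from this fit, each with Benjamini-Hochberg adjustment over all genes tested. The fit was also run on simulated data with shifts added at D1. How often it would call a shift of a given size is not reported here. Relations between libraries used Python 3.11.15 with numpy 2.4.6, pandas 2.3.3 and scipy 1.17.1, and figures matplotlib 3.10.9. The genes of interest and the gene lists were chosen with earlier results of these data known, and 2 alternatives, the removal of 3 libraries and the covariate of mature neuron genes, were chosen after seeing the data. From each other list, at most 4 genes with the smallest unadjusted p in the later stages against D1 were to be named, with the 3 most similar genes for each immature neuron gene; some of these genes are not reported here. Markers of brain regions and genes of the neuron list named as examples fall outside this rule, and were chosen with their values known. Alternatives were another pseudocount, filter, scaling, variance model or set of libraries, library quality weights, a block on the replicate number, and the mapping rate, read from the study's supplement, as a covariate.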

Additional observations from a re-analysis of the deposited data

Results flagged for a closer look

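In 2 of 36 groups of 5 libraries, 1 library lay far from the others, by a gap of more than 0.71 of the range of the group (Dixon's criterion). Chance alone gives this in about 1 of 20 groups. STMN1 in D1 replicate 4 was at 119 FPKM, and the nearest D1 library was at 303 FPKM. This library also had the highest DCX (10.8 FPKM) and SOX4 (14.2 FPKM) of all 20 libraries and 342 FPKM over 8 oligodendrocyte genes against a D1 median of 4572 FPKM. STMN2 in D1 replicate 5 was at 218 FPKM, and the nearest D1 library was at 320 FPKM. This library had the lowest sum of mature neuron genes at D1, 901 FPKM against a median of 1395 FPKM. The part of cell mix or dissection in either value was not tested.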

How the results depend on the processing

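Counts of called genes among the 9 immature neuron genes stayed at 0 in all 277 values over 35 alternatives, 20 of which left out 1 library each. The 15 log2 fold changes followed were those of the 9 genes in the later stages against D1, and 6 between 2 stages. These 6 were followed because their unadjusted p in limma was under 0.05. Of 500 values, 481 kept their direction and 19 reversed. The 6 chosen by p kept it throughout, which partly follows from that choice, and each of the other 9 reversed in at least 1 alternative. With the mapping rate as a covariate, the later stages against D1 reversed for GAP43 (0.78), CRMP1 (0.59), STMN2 (0.57), DPYSL3 (0.46), NNAT (0.15) and DCX (0.067). With the replicate block and mapping rate together, CRMP1 (0.99), GAP43 (0.77), STMN2 (0.73), DPYSL3 (0.27), SOX4 (0.049) and DCX (0.013) reversed. Library quality weights reversed STMN1 (-0.025) and SOX11 (-0.19), removal of 3 libraries reversed SOX11 (-0.0047), and the mature neuron covariate reversed CRMP1 (0.20). The cause was not tested. When each library was left out in turn, values ranged from -0.34 to 3.22e-05 for CRMP1, from -0.21 to 0.20 for STMN1 and from -0.090 to 0.33 for SOX11. The lowest adjusted p of any followed fold change in limma was 0.140, for STMN2 in M6 vs. D1 with quality weights. Samples with the same replicate number did not deviate together (median r = -0.011 over 30 pairs, from -0.246 to 0.430). The replicate block changed no call, and gave SOX4 a log2 fold change of -1.02 (SE 0.38) in the later stages against D1. A filter on a mean of 1 FPKM left out SOX11, and a fit of only the stages compared was not possible for the later stages against D1, which use all stages. Without read counts, precision rests on the spread of 5 goats per stage.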

Other observations

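Genes of other cell types were summed in each library as a description. The 8 oligodendrocyte genes had median sums of 4572, 1995, 2219 and 2246 FPKM in D1, M2, M4 and M6 goats, with single libraries as low as 170 FPKM (M4 replicate 1). The medians of 7 astrocyte genes were 2623, 2338, 2555 and 3217 FPKM, those of 7 microglia genes 132, 145, 130 and 129 FPKM, and those of 6 endothelial genes 89.1, 77.2, 62.2 and 82.2 FPKM, in the same order. M4 replicate 1, the highest of its stage for 6 of the 9 immature neuron genes, had the lowest sum of its stage in each of these 4 lists, and their part in its values was not tested. None of the genes in these 4 lists was called by limma in the later stages against D1.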
